A study of Mus musculus with 60 samples.

Results

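The 10 genes studied here mark the wall of blood vessels and were followed through inguinal white adipose tissue and liver of obese mice. They were taken by symbol from the deposited expression tables, and all 10 of the 10 symbols were found among the 54343 symbols that each table lists. Of these, 5 are genes of endothelial cells (Pecam1, Cdh5, Kdr, Tek and Emcn) and 5 of mural cells (Pdgfrb, Rgs5, Cspg4, Notch3 and Acta2). No measured value entered the choice of these symbols, although it was made with earlier results of these data known.

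Endothelial cells line the vessel lumen and are held together by the adhesion molecules encoded by Pecam1 (CD31) and Cdh5 (VE-cadherin). Kdr encodes the main signalling receptor for VEGF-A, Tek the angiopoietin receptor TIE2, and Emcn the sialomucin endomucin of capillary and venous endothelium. Mural cells, the pericytes and smooth muscle cells, wrap the endothelium. They are recruited by PDGF-B through the receptor encoded by Pdgfrb and maintained by the receptor Notch3, and they carry the proteoglycan NG2 (Cspg4), the G-protein regulator Rgs5 and smooth muscle actin (Acta2). In fat these vessels feed adipocytes and house progenitor cells, whereas liver sinusoids have a fenestrated endothelium and hepatic stellate cells in place of classical pericytes. Several of the genes are not confined to these cells in the body: Pecam1 is also found on platelets and leukocytes, Pdgfrb on fibroblasts and Cspg4 on glial progenitors. Acta2 shares much of its sequence with the other actin genes, so its values may hold reads of those genes.

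The study sequenced poly(A) RNA of 60 tissue samples from diet-induced obese mice of 2 lines, one with floxed alleles of Glp1r, the receptor of GLP-1, and one with floxed alleles of Gipr, the receptor of GIP. Each line and tissue has 3 groups of 5 libraries. They are Glp1rfl/fl or Giprfl/fl mice given vehicle, the same floxed genotype given mGIPR-Ab/P1, in which a GLP-1 peptide is joined to an antibody that targets GIPR, and Glp1rWnt1-/- or GiprSyn-/- mice given vehicle. The labels mark the deletions as Wnt1 and Syn without naming the driver or the cells in which it acts. Age, dose, the Cre status of the floxed mice and which tissues came from the same mouse are not stated in the labels, and knockout mice given the conjugate were not analysed here. The p-values measure the spread between samples labelled as biological replicates, and in bulk tissue fewer vessel cells and less RNA of a gene per cell cannot be told apart.

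Depth, estimated from the low values, was 29.9 to 64.6 M fragments in adipose tissue and 31.7 to 57.3 M in liver. In liver of the Glp1r line the conjugate libraries (31.7 to 35.6 M) were all shallower than the vehicle libraries (47.6 to 55.01 M). Whole-tissue levels of the targeted genes check the labels only weakly. Gipr was at 2.57 to 5.37 FPKM in GiprSyn-/- fat and at 5.02 to 7.46 FPKM in fat of its vehicle controls, with overlap, and Glp1r was under 0.1 FPKM in all adipose libraries. In liver neither gene exceeded 0.356 FPKM. The tissues carried their own markers. In the Gipr line the adipocyte gene Adipoq had a median of 1903 FPKM in fat and 0.489 in liver, and albumin (Alb) 6.73 in fat and 33314 in liver. A score of 9 B cell genes, the mean of their log2(FPKM + 1), exceeded 5 in 7 of 30 adipose libraries (5.13 to 6.96, against 1.34 to 4.71 in the others), namely Glp1r vehicle replicate 2, Glp1r knockout replicates 1 and 3, Gipr vehicle replicate 2, Gipr conjugate replicate 1 and Gipr knockout replicates 1 and 5. For the vascular genes studied here, the comparisons in fat that rest on these libraries are also given without them. Fold changes of the other genes named below are given with all libraries only.

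The 250 bases upstream of the transcription start are shown for 3 of the 10 genes, Cspg4 because its level changed and Kdr and Emcn as the endothelial genes with the core of the binding motif of ETS factors, a family that includes the endothelial regulators ERG and FLI1. The core GGAAG, searched on both strands, is in capitals. The sequences are from RefSeq on GRCm38.p6, whose windows cover 7 of the 10 genes (Kdr, Tek, Emcn, Rgs5, Cspg4, Notch3 and Acta2). Kdr lies on the minus strand (chr5:75978456-75978705), Emcn on the plus strand (chr3:137340828-137341077) and Cspg4 on the plus strand (chr9:56864854-56865103).
Kdr: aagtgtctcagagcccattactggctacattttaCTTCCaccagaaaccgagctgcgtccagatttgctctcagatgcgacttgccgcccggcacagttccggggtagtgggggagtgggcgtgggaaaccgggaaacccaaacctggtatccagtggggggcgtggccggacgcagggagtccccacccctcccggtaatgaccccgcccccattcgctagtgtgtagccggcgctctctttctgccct
Emcn: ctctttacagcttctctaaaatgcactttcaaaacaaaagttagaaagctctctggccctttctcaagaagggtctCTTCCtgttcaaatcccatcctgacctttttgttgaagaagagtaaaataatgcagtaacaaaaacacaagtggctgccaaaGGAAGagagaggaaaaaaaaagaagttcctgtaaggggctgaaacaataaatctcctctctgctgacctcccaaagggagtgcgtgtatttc
Cspg4: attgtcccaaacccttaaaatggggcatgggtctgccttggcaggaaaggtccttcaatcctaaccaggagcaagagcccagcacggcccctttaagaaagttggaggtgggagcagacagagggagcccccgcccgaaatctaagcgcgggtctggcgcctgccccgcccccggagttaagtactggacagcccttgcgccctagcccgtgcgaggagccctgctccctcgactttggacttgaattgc

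The core GGAAG was found once in the Kdr window, 2 times in the windows of Emcn and Acta2 and not in those of Tek, Rgs5, Cspg4 and Notch3. It is frequent, with 64.1% of the 32851 windows of this length holding it. The GATA letters GATAA were found in the windows of Rgs5, Notch3 and Acta2 (22.6% of all windows) and the letters TGGGAA, the core read by the Notch partner RBPJ, in those of Kdr and Acta2 (21.6%). A TGGGAA followed by G also holds GGAAG, so these 2 motifs can overlap.

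In fat of untreated floxed mice the genes fell into a high and a low tier, and the order was similar in both lines. Values are FPKM, which scales fragments to transcript length and library size, so levels can be compared between genes. In the Glp1r line Rgs5 stood at 93.3 ± 21.7 FPKM (SD, n = 5), Pecam1 at 89.3 ± 24.6, Acta2 at 79.98 ± 28.4 and Cdh5 at 78.8 ± 23.9. These 4 overlapped one another and lay above all libraries of the next gene, Kdr (26.6 ± 8.30). Emcn (19.1 ± 4.603), Pdgfrb (17.5 ± 2.81), Cspg4 (15.4 ± 2.70), Tek (10.6 ± 2.27) and Notch3 (9.48 ± 2.40) followed, each overlapping its neighbour. In the Gipr line the upper tier was again Rgs5 (176 ± 11.4), Pecam1 (154 ± 13.2), Cdh5 (139 ± 23.0) and Acta2 (129 ± 9.55), clear of Kdr (44.2 ± 10.5). Below it Pdgfrb stood at 42.6 ± 7.35, Emcn at 32.04 ± 3.82, Tek at 23.3 ± 1.61, Notch3 at 18.7 ± 4.73 and Cspg4 at 12.7 ± 3.07, with Emcn clear of Tek.

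**Figure D1:**
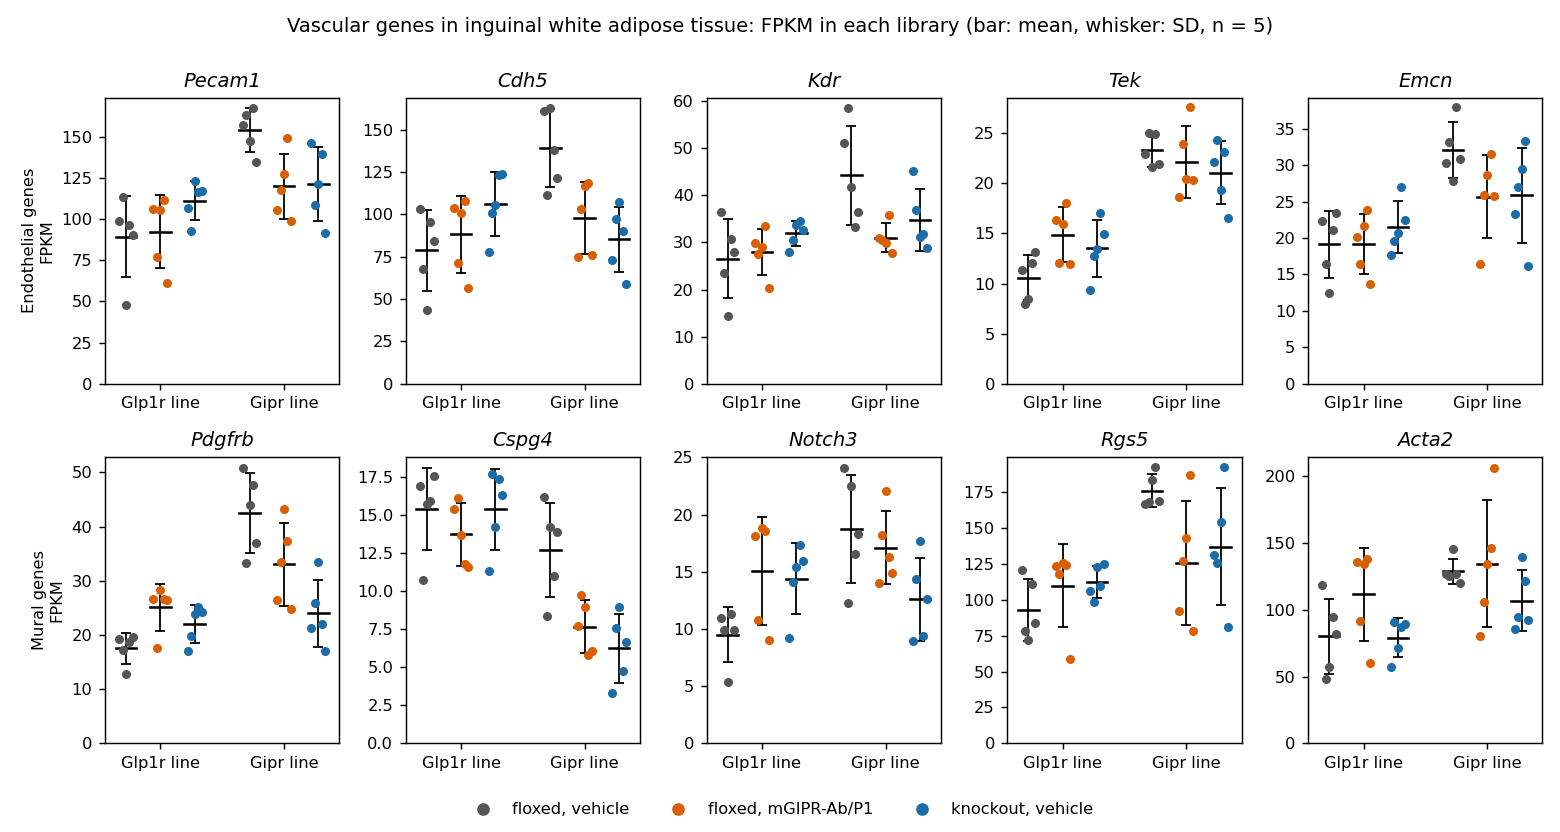
FPKM of the 5 endothelial genes (upper row) and the 5 mural genes (lower row) in inguinal white adipose tissue, each point 1 library, with the mean and SD of the 5 libraries of a group. In the Gipr line the vehicle mean of Cdh5 (139), Pdgfrb (42.6) and Cspg4 (12.7) stands above the knockout means (85.3, 24.0 and 6.26), while no such step is seen in the Glp1r line.

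In fat of GiprSyn-/- mice 3 of the 10 genes were lower than in floxed mice given vehicle, namely Cdh5 and the mural genes Pdgfrb and Cspg4. A gene counted as changed at an adjusted p under 0.05 in limma's test over all genes tested. In this comparison 12.3% of 13604 genes changed, and 5.67% of the 13604 were lower. The remaining 7 vascular genes had log2 fold changes below 0 that did not pass, so that the median of the 10 was -0.38, where the median of all genes was 0.0867.

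Cdh5, the adhesion molecule of endothelial junctions, stood at 161, 112, 163, 138 and 121 FPKM in vehicle replicates 1 to 5. In the knockout replicates it stood at 72.8, 97.5, 107, 90.2 and 59.1 FPKM. All 5 knockout libraries lay below all vehicle libraries, which held for 4.73% of all genes tested in that direction. The log2 fold change was -0.71 ± 0.18 (SE; adjusted p = 0.0226).

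Pdgfrb, the receptor through which endothelial PDGF-B holds pericytes, stood at 50.9, 33.2, 44.0, 47.7 and 37.04 FPKM with vehicle and at 21.3, 26.0, 33.5, 21.9 and 17.1 FPKM in the knockout. The groups touched only where knockout replicate 3 reached just above vehicle replicate 2. The log2 fold change was -0.82 ± 0.18 (adjusted p = 0.0133). Cspg4, the NG2 proteoglycan of pericytes whose upstream window is printed above, stood at 16.2, 8.35, 14.2, 10.99 and 13.9 FPKM with vehicle and at 3.29, 7.61, 8.99, 4.76 and 6.68 FPKM in the knockout. Again 1 knockout library, replicate 3, lay above vehicle replicate 2. Its log2 fold change was -0.95 ± 0.23 (adjusted p = 0.0166).

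Among the genes that did not pass, Notch3 (-0.54 ± 0.20, adjusted p = 0.0852) and Pecam1 (-0.36 ± 0.14, adjusted p = 0.0966) came nearest. Kdr was at -0.33 ± 0.15, Emcn at -0.33 ± 0.18 and Rgs5 at -0.41 ± 0.23. The smallest differences were those of Acta2 (-0.29 ± 0.20) and the angiopoietin receptor gene Tek (-0.15 ± 0.12, 95% interval -0.40 to 0.10). An unadjusted p under 0.05 was found for 6 of the 10, where 31.1% of all genes had one.

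B cell transcripts moved with the same comparison. The B cell score was 1.88 to 5.13 in the vehicle and 4.17 to 6.67 in the knockout libraries, and 6 of its 9 genes were called higher in the knockout. Without the libraries scoring above 5, a setting chosen after the data were seen, Pdgfrb (-0.72, adjusted p = 0.0409) and Cspg4 (-0.89, adjusted p = 0.0292) still passed and Cdh5 (-0.56, adjusted p = 0.0538) did not. With the score as a term in the fit 4 of the 10 log2 fold changes lay above 0, the median was -0.23 and none passed, with Cdh5 at -0.29, Pdgfrb at -0.44 and Cspg4 at -0.67 and adjusted p of 0.459, 0.279 and 0.253. That fit called 261 genes in all in place of 1670. Schwann cell genes moved too: 6 of 8 were called higher in the knockout (median 0.71) and 6 of 8 with the conjugate (median 0.82). The mean of their log2(FPKM + 1) was 3.004 to 3.41 in the vehicle, 3.65 to 4.19 in the knockout and 3.55 to 4.32 in the conjugate libraries, without overlap with vehicle, and its part in the vascular differences was not tested. When each library was left out in turn, the call of Pdgfrb held in 15 of 15 fits, that of Cspg4 in 14 and that of Cdh5 in 11. Without vehicle replicate 1, Pdgfrb alone passed, Cdh5 having an adjusted p of 0.0653 and Cspg4 one of 0.0522. Cdh5 also missed the threshold without vehicle replicate 3 (0.0555), knockout replicate 1 (0.0558) or knockout replicate 5 (0.0535).

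**Figure D2:**
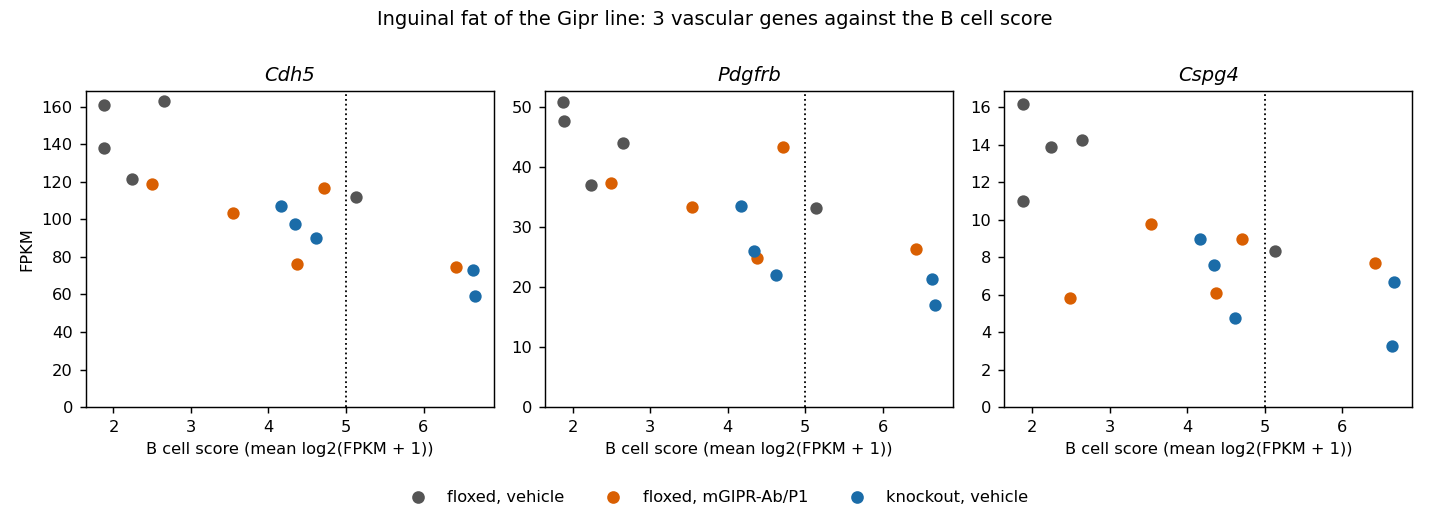
FPKM of Cdh5, Pdgfrb and Cspg4 against the B cell score of each of the 15 adipose libraries of the Gipr line, coloured by group, with a dotted line at a score of 5. Vehicle replicate 2, at a score of 5.13, is the lowest vehicle library for each of the 3 genes (112, 33.2 and 8.35 FPKM), and knockout replicates 1 and 5 lie above the line as well.

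Ratios between endothelial genes were also compared between these libraries. Pecam1 is also found on leukocytes, so a ratio to it need not reflect endothelial cells alone. The ratio of Cdh5 to Kdr was 1.61 to 2.42 in the 4 Gipr adipose libraries with a B cell score above 5 and 2.64 to 4.13 in the other 11. In the Glp1r line the same ratio was 2.79 to 3.12 in the 3 libraries above 5 and 2.61 to 3.80 in the other 12. The ratio of Emcn to Pecam1 ran 0.156 to 0.203 and 0.189 to 0.260 in the Gipr line, and 0.145 to 0.168 and 0.19 to 0.259 in the Glp1r line. The lower ranges of Emcn to Pecam1 thus belonged to the libraries rich in B cell transcripts in both lines, with no overlap in the Glp1r line. So did those of Cdh5 to Pecam1 (0.498 to 0.708 against 0.646 to 1.11 in the Gipr line, 0.596 to 0.857 against 0.902 to 1.08 in the Glp1r line). Kdr to Pecam1 went opposite ways. Its median in the rich libraries was 0.312 against 0.260 in the Gipr line and 0.263 against 0.305 in the Glp1r line. The part of lymphoid cells in the vascular differences was not tested beyond these fits.

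The partners of these genes were taken from 4 lists of the VEGF, angiopoietin, PDGF and Notch pathways and of other endothelial and mural genes. Fold changes of these and other listed genes are from the fit with all libraries and without the B cell score as a term. For the list counts in GiprSyn-/- fat, the shares of all 13604 genes tested were 12.3% changed and 5.67% lower. In that fat 2 of 17 measured PDGF and Notch genes were lower and none higher. Pdgfb, the ligand of the Pdgfrb receptor, stood at 20.4 ± 3.01 FPKM with vehicle and 13.6 ± 4.33 in the knockout (log2 fold change -0.60 ± 0.18). The other was the Notch target Hey1 (-0.45 ± 0.12). The list had a median of -0.27. Of 15 VEGF, angiopoietin and apelin genes, 2 were lower and 1 higher, with a median of -0.20. The apelin receptor gene Aplnr went from 48.8 ± 9.96 to 21.8 ± 8.94 FPKM (-1.22 ± 0.32) and the semaphorin and VEGF co-receptor gene Nrp2 from 24.0 ± 2.14 to 16.7 ± 2.69 FPKM (-0.51 ± 0.12). Angpt1, the ligand of TIE2 made by perivascular cells, was higher, at 5.46 ± 1.38 against 2.91 ± 0.579 FPKM (0.71 ± 0.18).

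Of 19 other mural genes measured in that fat, 4 were lower and none higher, with a median of -0.31. Itga7, an integrin gene of muscle and mural cells, went from 95.3 ± 19.1 to 42.5 ± 12.7 FPKM (-1.17 ± 0.22). The pericyte gene Ndufa4l2 was at -0.88 ± 0.26, the myosin light chain kinase gene Mylk at -0.80 ± 0.18 and the potassium channel gene Kcnj8 of pericytes at -0.57 ± 0.17. None of 25 other endothelial genes changed, with 22 of 25 below 0 and a median of -0.32. Of the 25, 8 had an unadjusted p under 0.05, where 31.1% of all genes had one. Of 10 measured sinusoidal genes 2 were higher, and of 7 lymphatic genes 1, a member of both lists. This shared gene, Lyve1, a hyaluronan receptor of lymphatic and sinusoidal endothelium and of some macrophages, stood at 31.9 ± 4.45 against 16.5 ± 2.85 FPKM, and the other was F8 (coagulation factor VIII, 0.93 ± 0.27). Of 4 measured genes of lymph node vessels and follicles 2 were higher, Cxcl13, the chemokine that draws B cells (2.83 ± 0.72), and Fcer2a, the IgE receptor gene of B cells and follicular dendritic cells (39.8 ± 34.2 against 6.304 ± 10.9 FPKM).

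In fat of Giprfl/fl mice none of the 10 genes passed the test with the conjugate (7.02% of all genes did), and all 10 log2 fold changes lay below 0 (median -0.37, all genes 0.11). Kdr, the VEGF-A receptor, stood at 30.9, 30.6, 29.9, 35.9 and 27.7 FPKM with the conjugate against 51.2, 58.5, 41.7, 33.3 and 36.5 FPKM with vehicle. Vehicle replicates 1, 2, 3 and 5 lay above every conjugate library, and vehicle replicate 4 was below conjugate replicate 4. Its log2 fold change was -0.47 ± 0.15 (adjusted p = 0.0732). Cspg4 was at -0.65 ± 0.23 (adjusted p = 0.0926) and Cdh5 at -0.51 ± 0.18 (adjusted p = 0.101). Rgs5 was at -0.55 ± 0.23, Pecam1 at -0.37 ± 0.14 and Pdgfrb at -0.37 ± 0.18.

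An unadjusted p under 0.05 was found for 5 of the 10 with the conjugate, where 24.1% of all genes had one. Acta2 showed no such shift (-0.01 ± 0.20, 95% interval -0.44 to 0.43), with 1 conjugate library, replicate 5, at 206 FPKM and the others at 79.97 to 146. Notch3 (-0.10 ± 0.20) and Tek (-0.08 ± 0.12) were also near 0. This comparison and the knockout comparison share their vehicle libraries, so that a high or low vehicle library moves both. The B cell score ran from 2.49 to 6.42 in the conjugate libraries and from 1.88 to 5.13 in the vehicle libraries. With this score as a term the median became -0.19 with 3 of 10 above 0, and none of the 10 passed. Without the libraries scoring above 5, Cspg4 alone of the 10 passed (-0.79, adjusted p = 0.0429), where 786 genes were called in all. The mural genes Mylk (-0.89 ± 0.18) and Itga7 (-0.82 ± 0.22) were lower with the conjugate, the only changes among the 19 other mural genes, and 2 of 10 sinusoidal genes were higher, Lyve1 (0.86 ± 0.14) and the BMP ligand gene Bmp2 (0.54 ± 0.12). Of 7 lymphatic genes 1 was higher, again Lyve1, and of 5 measured stellate cell genes 2, the matrix genes Ecm1 (0.75 ± 0.22) and Dcn (0.54 ± 0.14), the latter also a fibroblast gene.

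**Figure D3:**
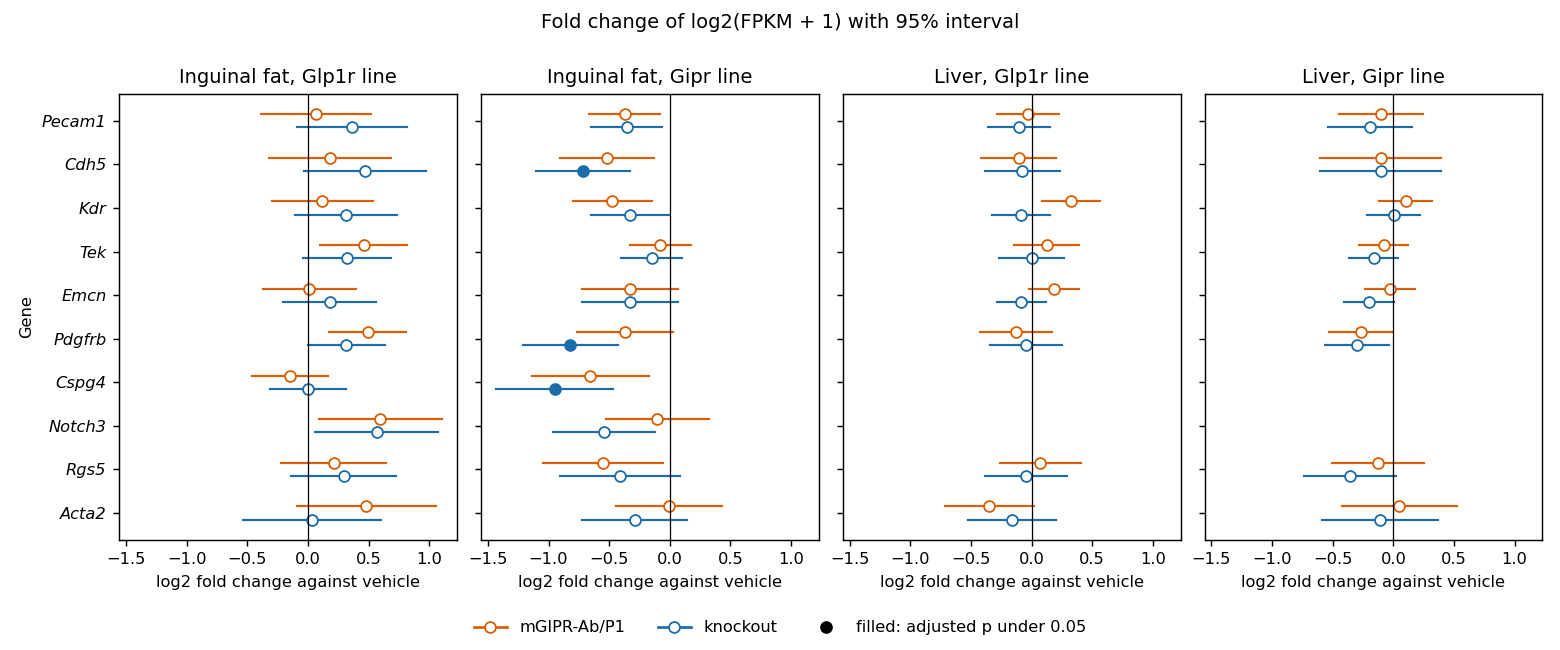
Log2 fold change against vehicle of each gene on the log2(FPKM + 1) scale, with its 95% interval, for the conjugate and the knockout in each line and tissue. Filled points mark an adjusted p under 0.05 and are found for Cdh5, Pdgfrb and Cspg4 in the knockout fat of the Gipr line; Cspg4 and Notch3 were too low to be tested in liver.

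In fat of the Glp1r line the same genes did not lie lower. With the conjugate none of the 10 changed (3.39% of 12686 genes did), 9 of 10 log2 fold changes lay above 0 and their median was 0.20 (all genes 0.0471). Pdgfrb stood at 26.6, 17.5, 28.3, 26.7 and 26.4 FPKM with the conjugate against 19.3, 17.2, 12.8, 18.7 and 19.6 FPKM with vehicle. Conjugate replicate 2 lay within the vehicle range and the other 4 above it. The log2 fold change was 0.49 ± 0.15 (adjusted p = 0.0847), and without that library it was 0.61 with an adjusted p of 0.0192. Without the libraries rich in B cell transcripts Pdgfrb was at 0.49 with an adjusted p of 0.0452.

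Notch3 (0.60 ± 0.24, adjusted p = 0.191) and Tek (0.46 ± 0.17, adjusted p = 0.157) had the next smallest p in that comparison, and Cspg4 was the one gene below 0 (-0.15 ± 0.15). An unadjusted p under 0.05 was found for 3 of 10 genes, against 17.9% of all genes. Vehicle replicate 3 was the lowest of all 15 libraries of the table for 6 of the 10 genes, with Pecam1 at 48.1 FPKM where the others had 90.3 to 113. Without it the median was 0.0544 with 5 of 10 above 0. Of the other mural genes the transcription factor gene Foxs1 alone was higher, at 4.13 ± 0.758 against 2.58 ± 0.541 FPKM (0.52 ± 0.13).

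In fat of Glp1rWnt1-/- mice none of the 10 genes changed, and none of the 12686 genes tested did (0% called; 4.67% at an unadjusted p under 0.05). All 10 log2 fold changes lay above 0, the median being 0.31 (all genes 0.0408). Notch3 was at 9.22, 14.1, 15.4, 17.3 and 15.98 FPKM in the knockout and at 10.98, 9.87, 5.33, 11.3 and 9.93 FPKM with vehicle. Knockout replicate 1 lay below 4 of the vehicle libraries and the other 4 above all of them (0.57 ± 0.24, adjusted p = 0.983). Cdh5 was at 0.47 ± 0.23 and Pdgfrb at 0.32 ± 0.15. An unadjusted p under 0.05 was found for 1 of the 10. Without vehicle replicate 3 the median was 0.18 with 9 of 10 above 0. Without the libraries rich in B cell transcripts it was 0.35 with 10 of 10 above 0 and no gene called.

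Whether the conjugate acted differently in fat of the 2 lines was tested by an interaction contrast in a fit of all 30 adipose libraries. No gene of 14156 was called (0%; 554 had an unadjusted p under 0.05), and each of the 10 vascular genes had an adjusted p of 0.887. All 10 estimates lay below 0, that is lower in the Gipr line, with a median of -0.56 where all genes had 0.0505. An unadjusted p under 0.05 was found for 6 of the 10 against 3.91% of all genes. The largest difference was that of Pdgfrb (-0.86 ± 0.24, 95% interval -1.36 to -0.36), followed by Rgs5 (-0.76 ± 0.32), Notch3 (-0.70 ± 0.32) and Cdh5 (-0.69 ± 0.31). Tek was at -0.54 ± 0.21 and Kdr at -0.59 ± 0.25. All 10 were below 0 in each of 30 fits without 1 library (medians -0.70 to -0.48) and in 14 other fits (medians -0.64 to -0.48). Among the latter, the fit without the libraries rich in B cell transcripts had a median of -0.50 and called none. The genes share libraries and the fits overlap, so the common sign is not independent support. The lines also differed with vehicle. Pdgfrb stood at 42.6 FPKM in the Gipr and 17.5 in the Glp1r line with vehicle, and at 33.0 and 25.1 with the conjugate. For Rgs5 these were 176 and 93.3, and 126 and 110. Cspg4 was lower in the Gipr line in both groups (12.7 and 15.4, and 7.67 and 13.7).

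In liver the vascular genes were lower than in fat, and their order differed. With vehicle in the Glp1r line Rgs5 stood at 6.89 ± 1.55 FPKM (SD, n = 5), Pecam1 at 3.96 ± 0.668, Cdh5 at 3.70 ± 0.796 and Kdr at 3.34 ± 0.674. Pdgfrb (1.998 ± 0.390), Tek (1.47 ± 0.403), Acta2 (1.42 ± 0.483) and Emcn (1.003 ± 0.201) followed. The mural genes Notch3 (0.132 ± 0.0442) and Cspg4 (0.008 ± 0.00275) were close to 0 and, in both lines, did not reach 1 FPKM in 5 libraries, so that 8 of the 10 genes were tested in liver. The gap between tissues was smallest for Tek in the Glp1r line (7.22-fold) and for Kdr in the Gipr line. Fat exceeded liver 7.95-fold for Kdr in the Glp1r line and 3.83-fold in the Gipr line, and 22.6-fold and 16.7-fold for Pecam1. For Acta2 it did so 56.2-fold and 37.5-fold. The tables were normalized separately, so these ratios are descriptions without a test.

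**Figure D4:**
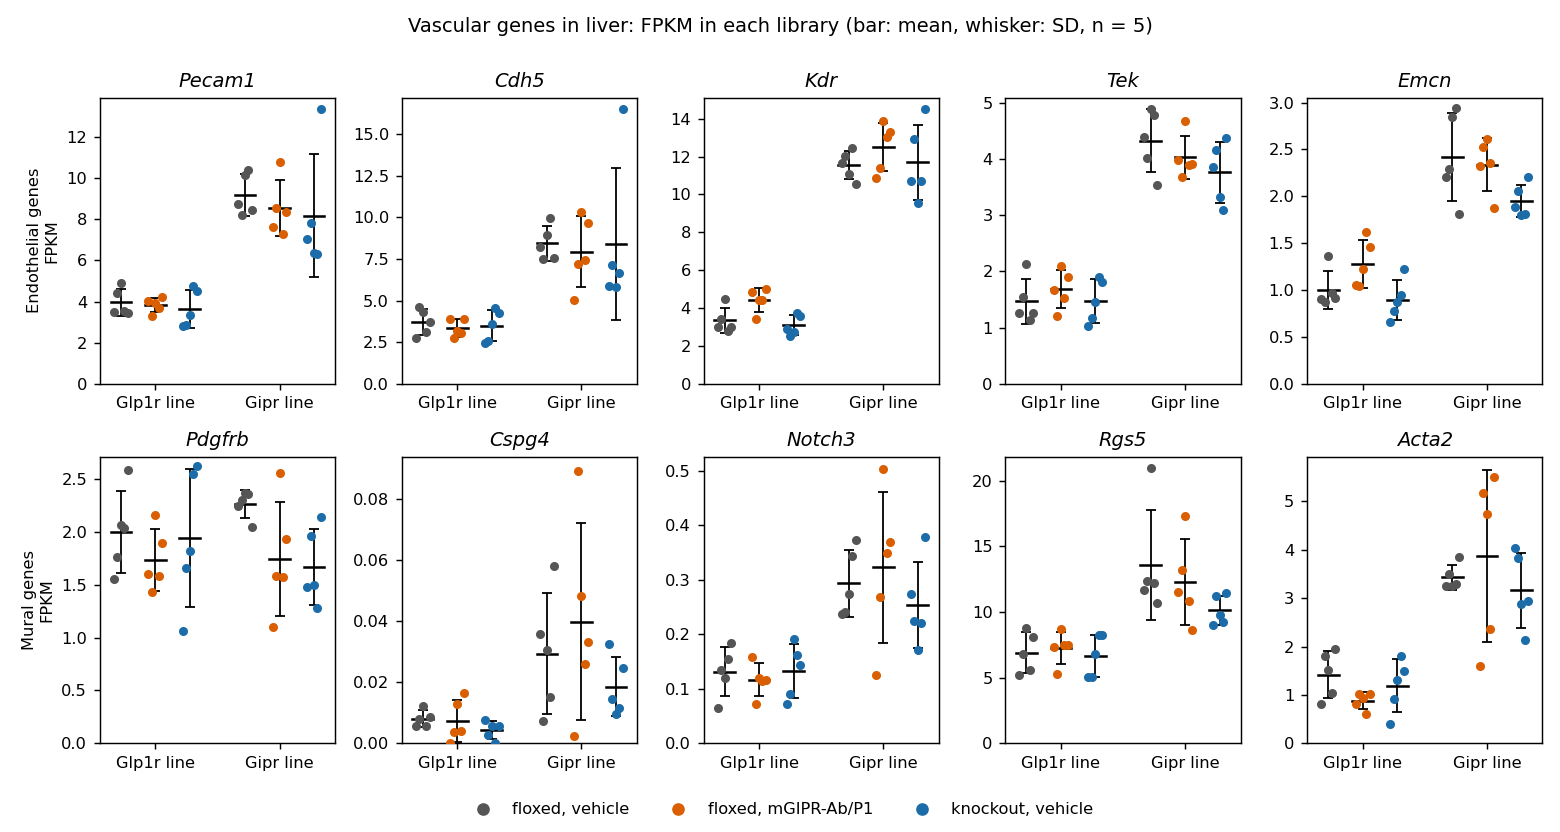
FPKM of the endothelial genes (upper row) and mural genes (lower row) in liver, each point 1 library, with the mean and SD of the 5 libraries of a group. The groups of a line overlap for most genes, the vehicle libraries of the Gipr line lie above those of the Glp1r line for all endothelial genes, and knockout replicate 5 of the Gipr line stands out for Cdh5 (16.5) and Pecam1 (13.4).

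None of the 8 genes tested in liver changed in any of the 4 comparisons. Of all genes, 10.4% changed with the conjugate in the Glp1r line, 0% in the Glp1rWnt1-/- mice, 4.34% with the conjugate in the Gipr line and 10.4% in the GiprSyn-/- mice. An unadjusted p under 0.05 was found for 1, 0, 1 and 1 of the 8 genes in these comparisons, against 27%, 9.65%, 20.1% and 24.1% of all genes. The medians of the 8 genes were 0.0225, -0.0798, -0.0912 and -0.18, and those of all genes 0.0126, -0.0376, -0.0296 and -0.11.

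Kdr came nearest to a call. With the conjugate in Glp1rfl/fl mice it stood at 4.83, 3.40, 4.44, 4.43 and 4.98 FPKM, and with vehicle at 2.99, 3.41, 4.48, 2.81 and 3.01 FPKM. Vehicle replicate 3 lay above conjugate replicates 2, 3 and 4, and vehicle replicate 2 just above conjugate replicate 2. Apart from vehicle replicate 3 and conjugate replicate 2 the groups did not overlap. The log2 fold change was 0.32 ± 0.11 (adjusted p = 0.0771). It was 0.41 with an adjusted p of 0.0334 without that vehicle library, and 0.40 with 0.0294 without that conjugate library. Erythrocyte genes were lower in these conjugate livers (3 of 5 called, median -1.11), and their part was not tested. The shallower conjugate libraries of this line cannot be told apart from the treatment. In the Gipr line Kdr did not differ with the conjugate beyond its spread (0.10 ± 0.10, 95% interval -0.12 to 0.32), and the difference between the lines was -0.22 ± 0.15 (adjusted p = 0.921). No gene of 11549 was called in that test of liver (0%; 5.71% at an unadjusted p under 0.05), and none of the 8 had an unadjusted p under 0.05.

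In the same livers the counts of the lists of endothelial, sinusoidal and mural genes were near or below the 10.4% of all genes that changed. Of 18 other endothelial genes measured in liver of the Glp1r line 2 were higher with the conjugate and none lower, S1pr1, the sphingosine 1-phosphate receptor that steadies endothelial junctions (14.1 ± 1.15 against 9.22 ± 1.49 FPKM, 0.57 ± 0.09), and Gpihbp1, which carries lipoprotein lipase to the capillary lumen (0.34 ± 0.10). Of 9 VEGF and angiopoietin genes 2 were higher, the ligand gene Vegfa (57.9 ± 5.33 against 43.4 ± 1.56 FPKM, 0.40 ± 0.07) and the co-receptor gene Nrp1 (0.58 ± 0.16). Of 15 sinusoidal genes 1 was higher, the lectin gene Clec4g (0.49 ± 0.15), and of 13 other mural genes 1, Itga7 (0.25 ± 0.06). In a fit with log2 depth as a term, an alternative added once the data were known, 0 genes of the table were called and the median of the 8 vascular genes was -0.46.

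In liver of the Gipr line the lowest p among the 8 genes tested were those of Pdgfrb, which also marks stellate cells there. It stood at 2.25, 2.30, 2.37, 2.36 and 2.04 FPKM with vehicle and at 1.48, 1.96, 1.495, 1.28 and 2.14 FPKM in the knockout. Of the knockout libraries replicate 5 alone reached the vehicle range. The log2 fold change was -0.30 ± 0.12 in the knockout (adjusted p = 0.149) and -0.27 ± 0.12 with the conjugate (adjusted p = 0.237). Pecam1 was at -0.20 ± 0.16 in the knockout, and without knockout replicate 5 at -0.37 with an adjusted p of 0.0347. That library held 13.4 FPKM of Pecam1 and 16.5 of Cdh5, where the other 4 held 6.31 to 7.82 and 5.81 to 7.15. Of 9 VEGF and angiopoietin genes 2 were lower in the knockout, Nrp2 (3.69 ± 0.801 against 5.77 ± 0.758 FPKM, -0.54 ± 0.13) and the lymphangiogenic ligand gene Vegfc (-0.26 ± 0.07). None of 24 other endothelial, 14 other mural or 15 sinusoidal genes changed there.

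The vehicle mice of the Gipr line had higher levels of most of these genes than those of the Glp1r line in both tissues. In liver the ratio of the means was 3.46 for Kdr, 2.94 for Tek, 2.41 for Emcn, 2.32 for Pecam1 and 2.28 for Cdh5, so that all 5 endothelial genes were at least 2-fold higher. Of the mural genes Acta2 (2.41) and Rgs5 (1.97) were higher as well and Pdgfrb was close to level (1.13). Among all genes tested in liver of both lines, 1.60% were at least 2-fold higher in the Gipr line, and the median ratio was 1.08. The libraries of the lines did not overlap for 7 of the 8 tested genes, where the Gipr libraries all lay above for 16.8% of all genes.

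Other vessel genes of the liver differed by list. Of 18 other endothelial genes 9 were at least 2-fold higher in the Gipr line (median ratio 1.95), as were 8 of 15 sinusoidal genes (median ratio 2.04), while 2 of 13 other mural genes were (median ratio 1.45), 0 of 7 PDGF and Notch genes (median ratio 1.13), 1 of 8 stellate cell genes (median ratio 1.33) and 0 of 8 hepatocyte genes (median ratio 0.928). In fat the ratio was 2.43 for Pdgfrb, 2.20 for Tek, 1.98 for Notch3, 1.89 for Rgs5, 1.76 for Cdh5 and 1.72 for Pecam1. Cspg4 went the other way, with a ratio of 0.828 and overlapping libraries. Without the 2 vehicle libraries rich in B cell transcripts the ratios ran from 0.836 for Cspg4 to 2.55 for Pdgfrb, and the Gipr libraries again all lay above for 8 of the 10 genes. Of all genes in fat 2.85% were at least 2-fold higher in the Gipr line, the median ratio was 1.06, and the Gipr libraries all lay above for 8 of the 10 genes and for 10.2% of all genes. Of the other lists in fat, 5 of 19 mural genes (median ratio 1.61), 3 of 8 fibroblast genes (1.97), 0 of 25 other endothelial genes (1.37) and 0 of 8 adipocyte genes (0.917) were at least 2-fold higher. So were 3 of 4 skeletal muscle genes (3.27), but the Gipr libraries all lay above for 0 of 4. By these means 3 of 4 B cell genes were at least 2-fold lower (0.340). Glp1r vehicle replicate 2 had a B cell score of 6.96, where the other Glp1r vehicle libraries had 1.36 to 1.55. Gipr vehicle replicate 2 had 5.13 and the other Gipr vehicle libraries 1.88 to 2.65. Outside these 2 libraries the B cell score was thus higher in the Gipr line. In liver 10 of 10 pancreas acinar genes were measured in the Gipr line. The 1 measured in both lines had a ratio of means of 17.2, but its libraries overlapped between the lines. The part of these other tissues in the vascular ratios was not tested. The lines differ in genotype and their tables were normalized separately. The labels name more than 1 way of RNA precipitation without saying which samples had which. Line, table and handling cannot be told apart here.

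**Figure D5:**
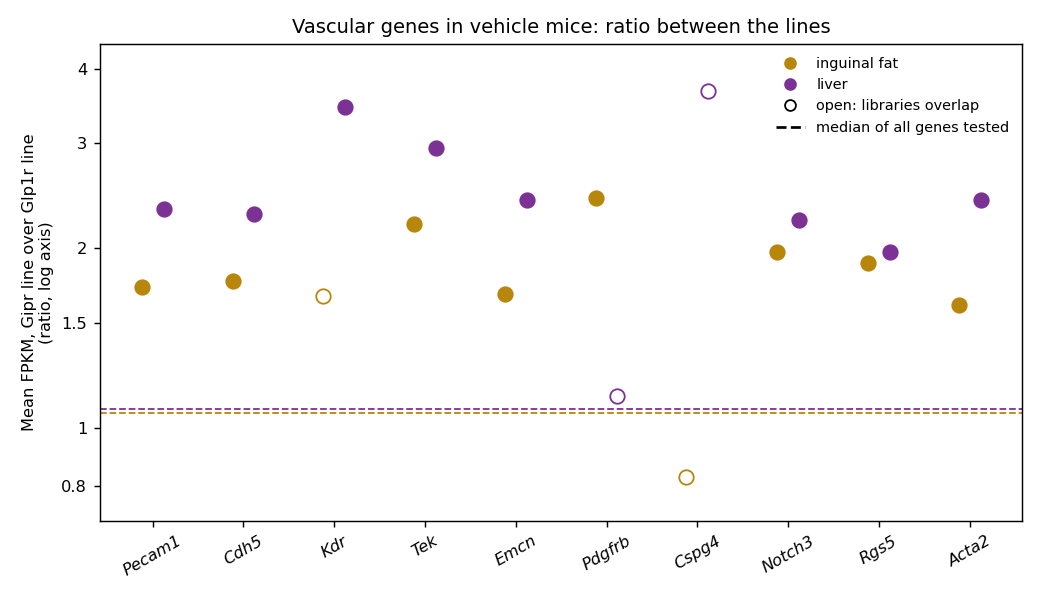
Mean FPKM of vehicle mice of the Gipr line over that of the Glp1r line for each gene (log axis), in inguinal fat and in liver, with dashed lines at the median ratio of all genes tested (1.06 and 1.08). Most genes lie above 1.5 in both tissues; Cspg4 in fat (0.828) and Pdgfrb in liver (1.13) do not, and the liver ratio of Cspg4 rests on levels close to 0.

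Within the groups the endothelial genes kept closer to one another than the mural genes did, by the median over pairs. Over the 30 adipose libraries, after the group means were removed, the log2 difference between 2 endothelial genes had a median SD of 0.245 over 10 pairs, that between 2 mural genes one of 0.373 over 10 pairs, and that between an endothelial and a mural gene one of 0.340 over 25 pairs. In liver these were 0.158, 0.262 and 0.214, the mural value including Cspg4 and Notch3 near 0. Single pairs departed from these medians. In fat Cdh5 was as close to the mural genes Notch3 (0.210) and Pdgfrb (0.215) as to its nearest endothelial gene, Emcn (0.212). Its other endothelial pairs reached 0.290 (Kdr) and its other mural pairs 0.376 (Cspg4). The pairs share libraries and genes, so no test was made. Likeness of profiles was taken without removing group means: each gene was centred on its mean within a table, so group differences remained. The genes whose profile over the 30 adipose libraries came nearest to the mean of the 5 endothelial genes, by the root mean square difference of these centred log2 values, were Adgrl4 (0.113), an endothelial adhesion receptor gene, She (0.114) and Tspan2 (0.114). Nearest to the mural mean were Ece1 (0.0822), the endothelin-converting enzyme gene, and Arhgef15 (0.113). In liver Ets1 (0.0782), a transcription factor gene of the ETS family, Elk3 (0.0916) and Arrb1 (0.0946) came nearest to the endothelial mean, and the basement membrane genes Lamb1 (0.109) and Lamc1 (0.112) with the matrix protease gene Mmp2 (0.126) to that of the 3 mural genes tested. For comparison, the 5 endothelial genes themselves lay at 0.137 to 0.181 in fat and 0.0836 to 0.177 in liver, and the mural genes at 0.187 to 0.295 and 0.101 to 0.194. Each of these genes is part of the mean it is set against.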

How the data were processed

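The 60 libraries were stranded poly(A) RNA sequenced on a NovaSeq X, per the labels' protocols. The deposited values are FPKM in 4 tables of 15 libraries, computed by the authors with RSEM per the submitters' processing notes; aligner, build and gene models were not given in the sources used here. Tests ran on log2(FPKM + 1) with limma 3.58.1 under R 4.3.3. Genes reaching 1 FPKM in at least 5 of the 15 libraries were tested. The 3 groups of a table were fitted together with a mean-variance trend, each group was compared with vehicle (8 comparisons), and p-values were two-sided, Benjamini-Hochberg adjusted over all genes tested. Fold changes on this scale understate changes of low genes. The difference of the conjugate effect between lines was a contrast in a fit of the 30 libraries of a tissue. Depth was estimated from the values of 1 fragment of single-transcript genes of 1500 to 6000 bases with Python 3.11.15 and gives only an approximate total. The fit was tested on simulated data. The genes, the lists and the tests were chosen with earlier results of these data known. The text names the 10 genes throughout, up to 4 called genes of each list per comparison with the largest change, and the 3 genes nearest to each class mean per tissue, of which 1 is not reported here. The alternatives were a pseudocount of 0.1, other filters and scalings, a replicate block, other fits and each library left out in turn. No count model was applied, the values being FPKM.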

Additional observations from a re-analysis of the deposited data

Results flagged for a closer look

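In 10 of 120 groups of 5 libraries, 1 library of a vascular gene stood far from the other 4, where chance gives about 1 in 20. In fat of the Glp1r line vehicle replicate 3 was low for Pecam1 (48.1 FPKM, the others 90.3 to 113) and Notch3 (5.33, the others 9.87 to 11.3). Vehicle replicate 2, rich in B cell transcripts, was low for Cspg4 (10.7, the others 15.7 to 17.6). With the conjugate, replicate 2 was low for Pdgfrb (17.5, the others 26.4 to 28.3) and replicate 5 for Rgs5 (58.5, the others 118 to 126). In fat of the Gipr line vehicle replicate 3 was high for Acta2 (145, the others 120 to 126).

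In liver knockout replicate 5 of the Gipr line was high for both adhesion genes of the endothelium, Cdh5 (16.5, the others 5.81 to 7.15) and Pecam1 (13.4, the others 6.31 to 7.82). Vehicle replicate 3 was high for Rgs5 in the Gipr line (21.0, the others 10.7 to 12.4) and for Emcn in the Glp1r line (1.36, the others 0.877 to 0.966).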

How the results depend on the processing

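The calls of Cdh5, Pdgfrb and Cspg4 in GiprSyn-/- fat held with a pseudocount of 0.1, without a filter and with one at 5 FPKM, under 3 rescalings, in a fit of only the 2 groups compared, with robust empirical Bayes, and without the higher series of library numbers. Median-of-ratios scaling moved them to -0.82, -0.93 and -1.05. In Gipr fat the higher series holds replicate 5 of the conjugate and of the knockout and no vehicle library. Knockout replicate 5 was the lowest library of that table for 5 of the 10 genes. Without the series Cdh5 had an adjusted p of 0.0481. With array weights 5 of the 10 genes were called in GiprSyn-/- fat, where 3723 of all 13604 genes were called. With the conjugate in fat 5 were called in the Glp1r line (5556 of all 12686) and 4 in the Gipr line (3618 of 13604). In fat 1 was called in the Glp1r knockout (732 of 12686) and 1 for the difference between lines (86 of 14156). In liver 4 were called in the Gipr knockout (3333 of 11201). Median-of-ratios scaling called 1 with the conjugate in Gipr fat (Kdr) and 1 in Glp1r liver (Kdr), and fitting the 2 groups of a comparison alone called 1 in Gipr fat with the conjugate (Cspg4). Alternatives chosen after the data were seen gave the following. The calls of Cdh5, Pdgfrb and Cspg4 in GiprSyn-/- fat held with a score of 8 skeletal muscle genes as a term (adjusted p 0.0426, 0.0308 and 0.0358). They also held with log2 depth as a term (0.0253, 0.0143 and 0.0298). These fits called 1083 and 1207 genes in all. Without the libraries rich in B cell transcripts 2 of the 10 were called in the Gipr knockout fat, and 1 with the conjugate in each line (Pdgfrb in the Glp1r line, Cspg4 in the Gipr line). With the B cell score as a term 0 were called in the Gipr knockout fat and 1 with the conjugate in Glp1r fat (Pdgfrb), and with the pancreas score as a term 1 with the conjugate in Glp1r liver (Kdr). Leaving out 1 library at a time gave 1 to 4 called genes in the Gipr knockout fat, 0 to 1 with the conjugate in Glp1r fat, 0 to 1 with the conjugate in Glp1r liver, 0 to 1 in the Gipr knockout liver and 0 in the other comparisons. No estimate past the threshold changed sign. The causes of these changes were not tested.

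Replicate numbers did not pair the vehicle libraries with the other groups. Same-numbered vehicle and conjugate libraries of Gipr fat correlated at -0.45 to 0.32 in their deviations, and conjugate and knockout libraries at 0.33 to 0.71. The replicate block called 4 of the 10 genes with the conjugate in Gipr fat (Pecam1, Cdh5, Kdr and Rgs5), where it called 1335 of all 13604 genes. In the knockout it called 4 (Pecam1 in addition) and 2253 of all 13604 genes, and elsewhere 0 of the vascular genes. The count of all genes called varied widely, for example 430 in the main fit against 2610 without the libraries rich in B cell transcripts for the conjugate in Glp1r fat. The tables hold no counts, so no interval of counting error was given, and the level of Cspg4 and Notch3 in liver limits what can be said of them.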
